A study of Mus musculus with 60 samples.

Results

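Glo1, Btbd9 and Hagh were followed in mouse cortex through every probe set, a group of short array probes that reads 1 transcript, whose annotation names 1 of these 3 genes alone. Glo1 had 4 such probe sets, Btbd9 3 and Hagh 3, which is 10 of the 45101 probe sets on the array, and 3 of the 18193 genes that at least 1 probe set names alone. The arrays carried cortical RNA of male mice from 30 inbred strains, aged 10 to 11 weeks per the labels. In each strain, mice that took fluoxetine by mouth at 18 mg/kg per day for 21 days were set against mice with a dose of 0 in their drinking water. Fluoxetine is an antidepressant of the class that inhibits serotonin reuptake. Each array held RNA pooled from 3 mice of 1 strain and treatment, so each strain had 1 fluoxetine array and 1 water array, 30 arrays per treatment. The spread of single mice was not seen, and a response in 1 strain alone had no replicate. The labels name no engineered allele in any strain.

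Glo1 encodes glyoxalase I, which with glutathione turns methylglyoxal, a reactive by-product of glycolysis, into S-D-lactoylglutathione. Hagh encodes glyoxalase II, the partner enzyme that splits this product into D-lactate and returns the glutathione. Methylglyoxal also acts at GABA-A receptors, and Glo1 dosage has been linked to anxiety-like behaviour in mice. A duplication that includes Glo1 and nearby sequence is known from other work in some inbred strains. Btbd9, the gene next to Glo1, encodes a BTB-domain protein whose human counterpart has been linked to restless legs syndrome. Copy number was not measured here, and all values are RNA levels.

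The promoters of Glo1 and Hagh are shown because both enzymes act in 1 pathway while their transcripts differed in how far they varied between strains. Each window of 300 bases runs from before the transcription start to shortly after it, from RefSeq, build GRCm38.p6, 5′ to 3′ on the strand of the gene. Capitals mark the box CCAAT, written ATTGG where it lies on the opposite strand.
Glo1, chr17:30612610-30612909, minus strand: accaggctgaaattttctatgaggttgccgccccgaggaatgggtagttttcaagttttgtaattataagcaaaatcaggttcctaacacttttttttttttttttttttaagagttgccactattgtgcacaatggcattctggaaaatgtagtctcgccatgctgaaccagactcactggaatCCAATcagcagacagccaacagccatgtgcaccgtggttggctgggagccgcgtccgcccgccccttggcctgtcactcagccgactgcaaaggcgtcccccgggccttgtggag
Hagh, chr17:24850240-24850539, plus strand: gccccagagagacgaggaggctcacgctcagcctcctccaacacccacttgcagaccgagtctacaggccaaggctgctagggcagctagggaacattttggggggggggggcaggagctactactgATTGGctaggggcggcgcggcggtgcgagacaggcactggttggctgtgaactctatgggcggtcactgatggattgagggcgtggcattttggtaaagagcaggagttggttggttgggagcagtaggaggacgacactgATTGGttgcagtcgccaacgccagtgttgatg
In the Glo1 window 49.7% of bases were G or C, with 11 CpG pairs, and in the Hagh window 60%, with 13, against a median of 52.7% over the 32851 promoter windows of the table. The box CCAAT, searched on both strands, occurred 1 time in Glo1, at position -65 from the start, and 2 times in Hagh, at -123 and 19. The GC box GGGCGG occurred 3 times in Glo1 and 2 times in Hagh. The Glo1 matches at -11 and -7 share bases. CCAAT was present in 37.4% of all windows and GGGCGG in 35.7%, so both are common letters for a window of this length. The core of the antioxidant response element, TGACNNNGC, which 12.4% of windows held, was found in neither printed window. The table holds another Hagh window, for a start further along (chr17:24850417-24850716, plus strand), which is not printed and has that core at position 21. Of the 3 genes, 2 had a window in the table. All 3 genes lie on chromosome 17, where no named coding gene separates Btbd9 from Glo1 and 141 lie between Hagh and Glo1.

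Glo1 fell into a high and a low set of strains. On probe set 1424108_at the 30 strain means, each the mean of the fluoxetine and the water array on the log2 intensity scale, split at a gap of 0.71 between 129S1/SvImJ at 11.37 and NOD/LtJ at 10.66. Above the gap were 12 strains: 129S1/SvImJ, A/J, AKR/J, C3H/HeJ, C57BLKS/J, CBA/J, CE/J, DBA/2J, I/LnJ, LP/J, MRL/MpJ and P/J. The other 18 lay below it. A largest gap of at least 0.5 is common on this array, and 10.8% of the 21631 tested probe sets had one. The sets were read off the values of Glo1 itself, so its separation is a description and was given no test.

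Every one of the 24 arrays above the gap was brighter than each of the 36 arrays below it, on all 4 Glo1 probe sets. Probe set 1424108_at read 11.29, 11.62 and 12.25 (lowest, median, highest array) in the strains above, against 9.97, 10.33 and 10.72 in the strains below. Probe set 1424109_a_at read 11.59, 11.94 and 12.53 above, against 10.23, 10.58 and 10.96 below. Probe set 1436070_at read 9.43, 9.88 and 10.33 above, against 5.68, 8.51 and 9.17 below. These ranges leave a space between the sets on each of these probe sets. Probe set 1451240_a_at, the one with the highest mean, read 12.56, 13.04 and 13.82 above, against 11.10, 11.90 and 12.38 below. Over all tested probe sets, 4 or 0.0185% were higher without overlap in these 12 strains, and they were the 4 of Glo1. In the opposite direction there were 0, or 0% of tested probe sets.

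Within the high set, CE/J and A/J stood apart on 1424108_at. CE/J had the highest mean at 12.25 and A/J followed at 12.16, and a step of 0.35 separated A/J from LP/J at 11.80. DBA/2J at 11.69 and AKR/J at 11.65 came next. Both arrays of a strain differed by a median of 0.10 on this probe set, so the steps between neighbours from DBA/2J down to 129S1/SvImJ were no larger than that. Among the low strains the means ran from 10.66 in NOD/LtJ to 10.07 in C58/J, with most steps smaller than the difference between arrays. The range over strains was 2.18 log2 units, or 4.52-fold, on 1424108_at and 2.12, or 4.35-fold, on 1424109_a_at. On 1451240_a_at it was 2.53, or 5.76-fold, with A/J highest at 13.79 and LG/J lowest at 11.26. The median range over all tested probe sets was 0.75.

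The same 12 strains stood above the gap of 1424108_at and of 1424109_a_at in the fluoxetine arrays alone and in the water arrays alone. The gap of 1424108_at was 0.57 in fluoxetine arrays and 0.79 in water arrays. The gap of 1424109_a_at was 0.63 in fluoxetine arrays and 0.72 in water arrays. The share of the Glo1 variance that lay between strains (intraclass correlation, treatment means removed) was 0.955 to 0.988 over the 4 Glo1 probe sets, against a median of 0.588 over all tested probe sets. Both arrays of a strain, made from different mice, thus gave Glo1 levels close to each other beside the spread over strains.

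**Figure D1:**
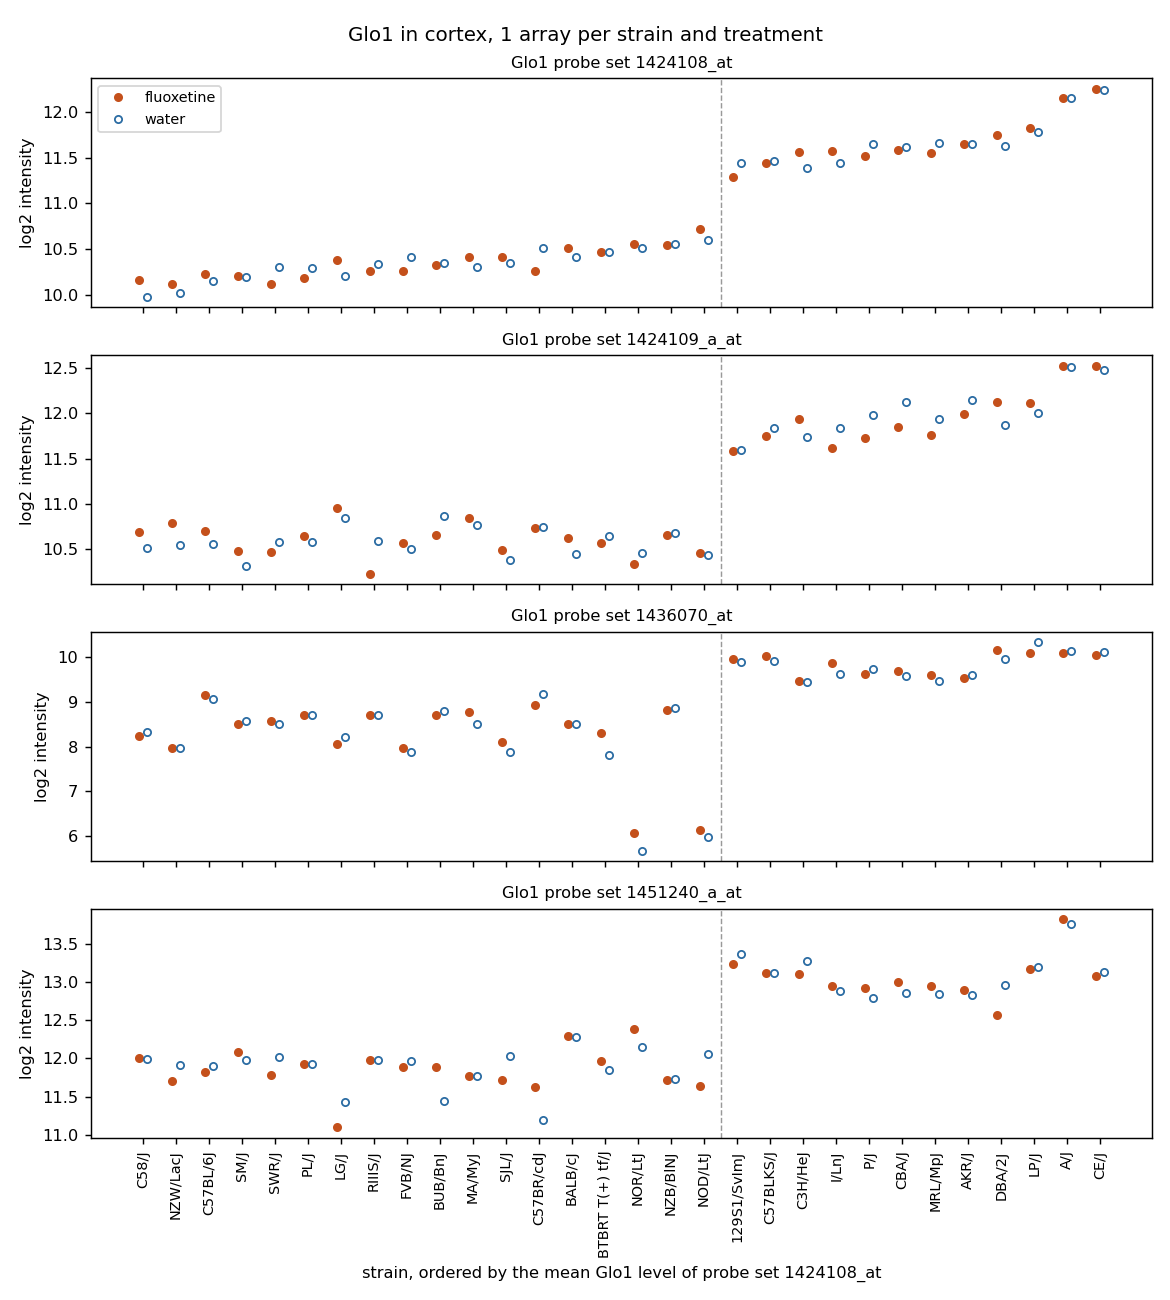
Log2 intensity of the 4 Glo1 probe sets in cortex (y axis) for each of 30 strains (x axis, ordered by the mean of probe set 1424108_at), with filled points for fluoxetine arrays and open points for water arrays and a dashed line at the gap of 1424108_at. The 12 strains right of the line lie above all others on each probe set, and NOR/LtJ and NOD/LtJ drop to strain means of 5.88 and 6.06 on 1436070_at alone.

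The probe sets disagreed on where the largest gap lay. On 1436070_at it was 1.86 and set NOR/LtJ at 5.88 and NOD/LtJ at 6.06 below the next strain, FVB/NJ, at 7.92. NOR/LtJ was derived in part from NOD/LtJ. On the other 3 Glo1 probe sets these strains were not set apart: NOR/LtJ read 10.53 and NOD/LtJ 10.66 on 1424108_at. Whether a sequence difference under the probes of 1436070_at changes hybridization in these strains was not tested. On 1451240_a_at the largest gap, 0.49, set A/J at 13.79 apart from 129S1/SvImJ at 13.30, and the next, 0.48, divided the 12 strains from the 18.

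Within each set not all Glo1 probe sets ranked the strains alike, which was examined in 30 relations between probe sets of 1 gene. In the 12 high strains 1424108_at and 1424109_a_at ran together (Pearson r = 0.970, permutation p = 1e-05, the smallest that 100000 resamples can give, adjusted p = 7.5e-05). Their Spearman rho was 0.930, and r without the 2 strains farthest from the median was 0.885. In the 18 low strains the same pair gave r = -0.174 (permutation p = 0.488, adjusted p = 0.517). There 1424109_a_at ran against 1451240_a_at (r = -0.770, permutation p = 0.00017, adjusted p = 0.00102), with rho = -0.771 and r = -0.612 without the 2 farthest strains. LG/J shows this: it had the highest 1424109_a_at mean of the low strains, 10.90, and the lowest 1451240_a_at mean, 11.26. The level of Glo1 within a set therefore depends on the probe set that reads it.

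Related strains fell on both sides of the gap. C57BLKS/J, a C57BL/6J-like strain with DBA/2J ancestry, was above, while C57BL/6J, C57BR/cdJ and C58/J were below. C57BLKS/J minus C57BL/6J was 1.27, 1.16, 0.86 and 1.25 log2 units on 1424108_at, 1424109_a_at, 1436070_at and 1451240_a_at, or 1.82- to 2.41-fold. C57BLKS/J minus DBA/2J was -0.23, -0.21, -0.09 and 0.35 in the same order. The C57BLKS/J level was thus nearer to DBA/2J than to C57BL/6J on each probe set. Of the Bagg albino-related strains, A/J, C3H/HeJ and CBA/J were above and BALB/cJ below. A/J minus BALB/cJ was 1.69, 1.98, 1.61 and 1.50. 129S1/SvImJ and LP/J were above and BTBRT T(+) tf/J below, with 129S1/SvImJ minus BTBRT T(+) tf/J at 0.90, 0.98, 1.85 and 1.39. The 4 Swiss-derived strains, FVB/NJ, NOD/LtJ, SJL/J and SWR/J, were all below. These are differences of means of 2 arrays per strain, and no test was made between strains picked for their Glo1 level.

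Btbd9, the nearest neighbour, did not divide the strains in the same way. The 24 arrays of the high Glo1 strains overlapped the 36 arrays of the low Glo1 strains on all 3 Btbd9 probe sets. Such overlap was the rule: of all tested probe sets only the 4 of Glo1, or 0.0185%, lacked it. Probe set 1431230_a_at read 9.33, 9.60 and 9.89 (lowest, median, highest) in high Glo1 strains, against 8.78, 9.54 and 9.92 in low Glo1 strains. Probe set 1434769_at read 8.70, 9.05 and 9.45 in high Glo1 strains, against 8.26, 9.00 and 9.68 in low Glo1 strains. Probe set 1435706_at read 8.58, 9.07 and 9.46 in high Glo1 strains, against 8.25, 8.91 and 9.20 in low Glo1 strains. The medians of the sets lay within 0.2 log2 units of each other on every Btbd9 probe set, while those of Glo1 were more than 1 log2 unit apart.

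Btbd9 nevertheless differed between strains. All 3 probe sets passed the F-test of the strain coefficients of limma, with adjusted p of 1.67e-05, 5.41e-08 and 1.16e-09 for 1431230_a_at, 1434769_at and 1435706_at. That test was passed by 85.8% of all tested probe sets. The strain ranges were 1.03, 1.21 and 1.09 log2 units, or 2.05-, 2.32- and 2.13-fold. RIIIS/J had the lowest Btbd9 strain mean on each probe set. On 1431230_a_at it read 8.78 with fluoxetine and 8.92 with water. On 1434769_at it read 8.30 with fluoxetine and 8.26 with water, and on 1435706_at 8.30 with fluoxetine and 8.25 with water. The next lowest strain means were 9.36 in SM/J, 8.60 in NZW/LacJ and 8.58 in C57BLKS/J, which left steps of 0.51, 0.32 and 0.31. Glo1 in RIIIS/J had means of 10.29, 10.41, 8.71 and 11.98 on 1424108_at, 1424109_a_at, 1436070_at and 1451240_a_at, which placed it 23, 28, 17 and 17 of 30 strains from the top. Over 30 strains the 3 probe sets of Btbd9 gave Pearson r of 0.537, 0.669 and 0.630 with each other (adjusted permutation p = 0.0124, 0.00111 and 0.00124; rho = 0.337, 0.572 and 0.530). Without the 2 strains farthest from the median, r was 0.321, 0.418 and 0.362, so part of the likeness rested on those strains. The highest Btbd9 strain differed by probe set: A/J on 1431230_a_at, NOD/LtJ on 1434769_at and CBA/J on 1435706_at.

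**Figure D2:**
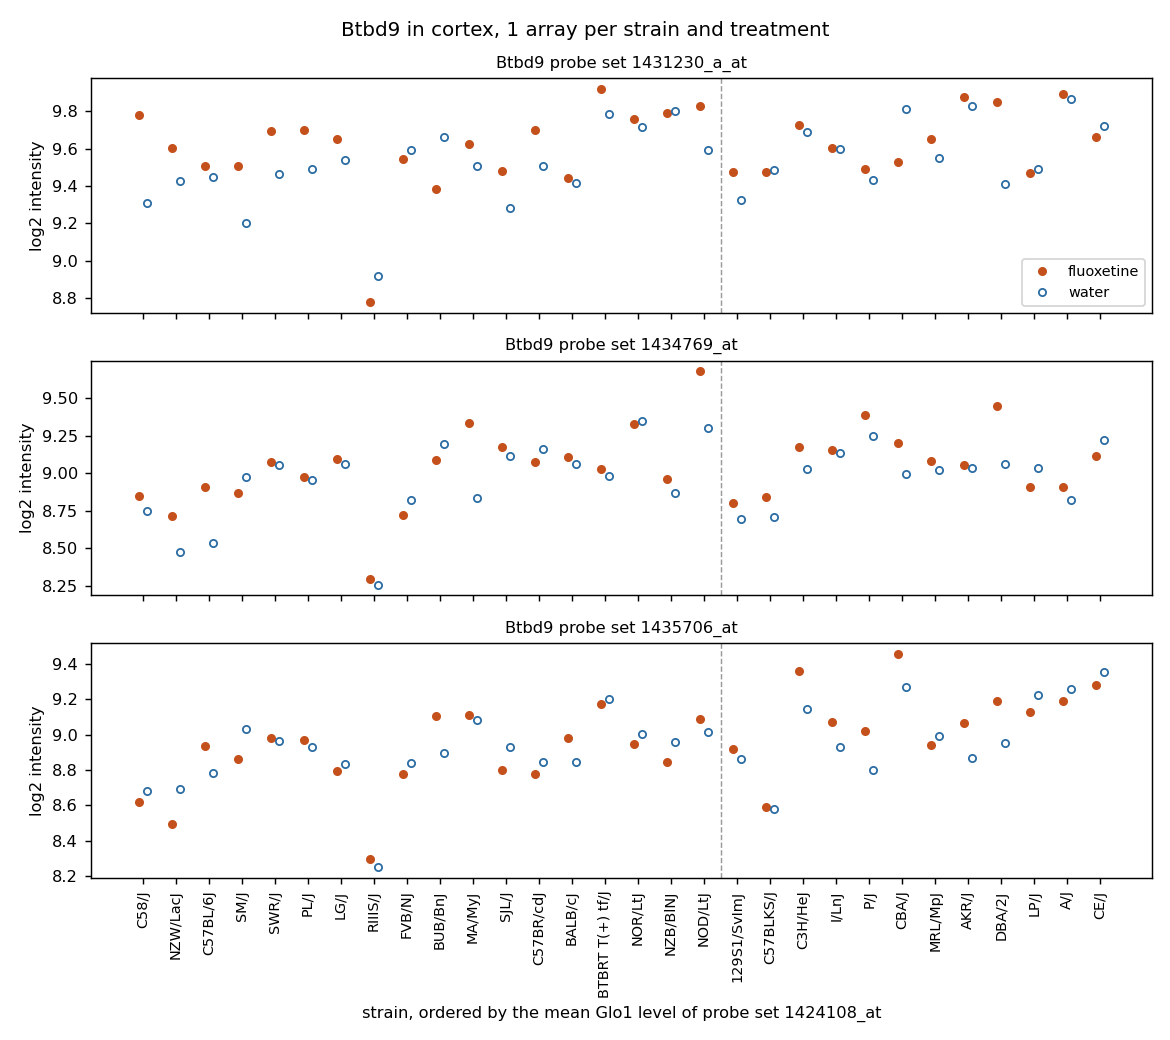
Log2 intensity of the 3 Btbd9 probe sets (y axis) for the 30 strains in the same order along the x axis as for Glo1 1424108_at, with filled points for fluoxetine arrays, open points for water arrays and a dashed line at the Glo1 gap. Arrays left and right of the line overlap, and RIIIS/J is lowest on each probe set, with strain means of 8.85, 8.28 and 8.27.

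Correlations of Btbd9 with Glo1 over strains were computed within each side of the gap where a Glo1 probe set had one of at least 0.5, and over all strains for 1451240_a_at, whose largest gap was 0.49. For 1451240_a_at the values within the sets above and below the gap of 1424108_at were added after seeing the data. With Hagh this made 48 relations. With Glo1 1424108_at, all 6 values were positive. In the 12 high strains r was 0.530, 0.136 and 0.560 for Btbd9 1431230_a_at, 1434769_at and 1435706_at. In the 18 low strains r was 0.385, 0.620 and 0.466. The strongest of these 6, 0.620 for 1434769_at, had permutation p = 0.00556 and adjusted p = 0.133. Its rho was 0.643 (permutation p = 0.00477, adjusted p = 0.114), and r without the 2 farthest strains was 0.496. With Glo1 1424109_a_at, r was 0.671, 0.118 and 0.582 in the 12 high strains and 0.325, 0.0386 and 0.140 in the 18 low strains. The 0.671, for 1431230_a_at, had permutation p = 0.0162 and adjusted p = 0.197. With Glo1 1436070_at, r was 0.192, 0.235 and 0.411 in the 28 strains above its largest gap. With Glo1 1451240_a_at over 30 strains, r was 0.186, 0.0452 and 0.412, with adjusted p of 0.587, 0.907 and 0.197. These values run across both strain sets. In the 12 high strains r with 1451240_a_at was 0.238, -0.646 and 0.194, and in the 18 low strains it was -0.173, -0.0649 and 0.0147. The value of -0.646, for 1434769_at (permutation p = 0.0196, adjusted p = 0.197, rho = -0.678), was 1 of 3 negative values among these 6 and was -0.554 without the 2 farthest strains. No relation of Btbd9 with Glo1 passed 0.05 after Benjamini-Hochberg adjustment. Strains of shared ancestry are not fully independent points, and this was not modelled.

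**Figure D3:**
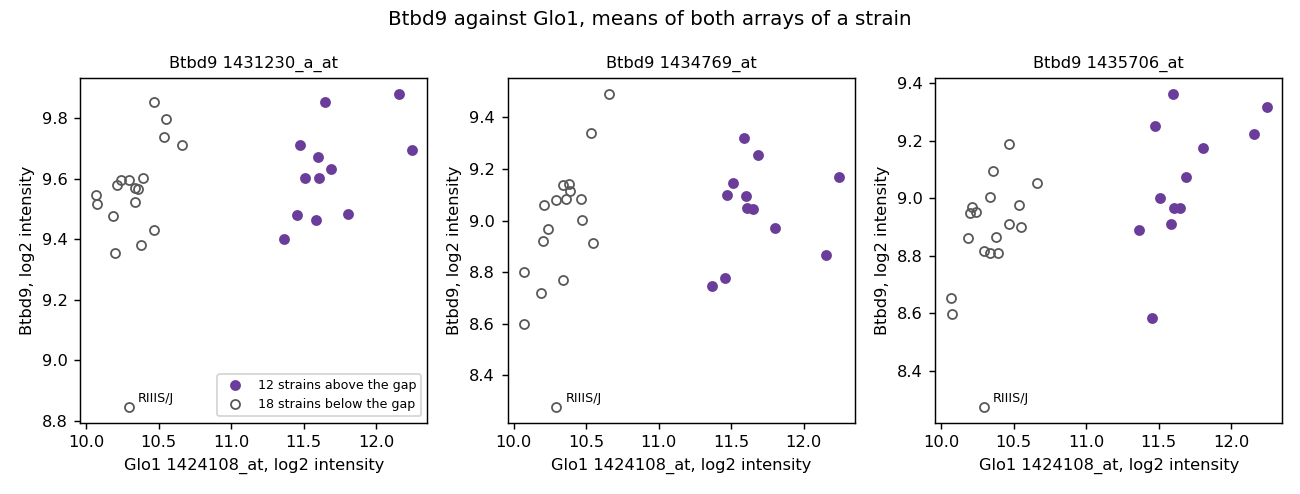
Strain means of the 3 Btbd9 probe sets (y axes, log2 intensity) against the strain mean of Glo1 1424108_at (x axes, log2 intensity), with filled points for the 12 strains above the Glo1 gap and open points for the 18 below. The clouds are far apart along Glo1 and overlap along Btbd9; within the strains below the gap r was 0.385, 0.620 and 0.466 from left to right.

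The other genes around Glo1 were read from the 8 nearest named genes on each side. On the Btbd9 side, Rnf8, a ubiquitin ligase of the DNA damage response, had strain means of 9.44 to 9.88 in high Glo1 strains, against 9.48 to 10.24 in low Glo1 strains. Cmtr1, which methylates the mRNA cap, ran from 9.34 to 9.58 in high Glo1 strains, against 9.15 to 9.53 in low Glo1 strains. Zfand3, a zinc finger gene next to Btbd9, ran from 11.41 to 11.77 in high Glo1 strains, against 11.31 to 11.74 in low Glo1 strains. All of these ranges overlap. Tbc1d22b, Ccdc167, Abcg1 and Tff1 overlapped as well. Outside Glo1, arrays of the strain sets overlapped on every tested probe set. Abcg1, a cholesterol exporter on the far side of Glo1, ran from 10.07 to 10.42 in high Glo1 strains, against 10.08 to 10.50 in low Glo1 strains. Over 30 strains, r with Glo1 1451240_a_at was -0.546 for Rnf8, 0.299 for Tff1 and 0.236 for Cmtr1, with no test. For Tbc1d22b, Ccdc167, Zfand3 and Abcg1 it lay between -0.0852 and 0.0697. These values run across both strain sets. Within the sets, r of Rnf8 with Glo1 1424108_at was 0.150 in the 12 high strains and 0.579 in the 18 low strains.

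The remaining 8 neighbours, Tmem217, Mdga1, Dnah8, Glp1r, Umodl1, Tff3, Tff2 and Tmprss3, did not reach the minimum for a test, a log2 intensity of 4 in at least 6 arrays. Dnah8, an axonemal dynein chain directly beyond Glo1, had strain means of 2.42 to 2.96 in high Glo1 strains, against 2.37 to 2.44 in low Glo1 strains. Those values lie close to the lowest value on the arrays, 2.07, where order is not resolved. Glp1r, the receptor for the gut hormone GLP-1, read 2.07 to 2.09 in high Glo1 strains, against 2.07 in all low Glo1 strains. Its level was therefore not measurable in cortex here.

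**Figure D4:**
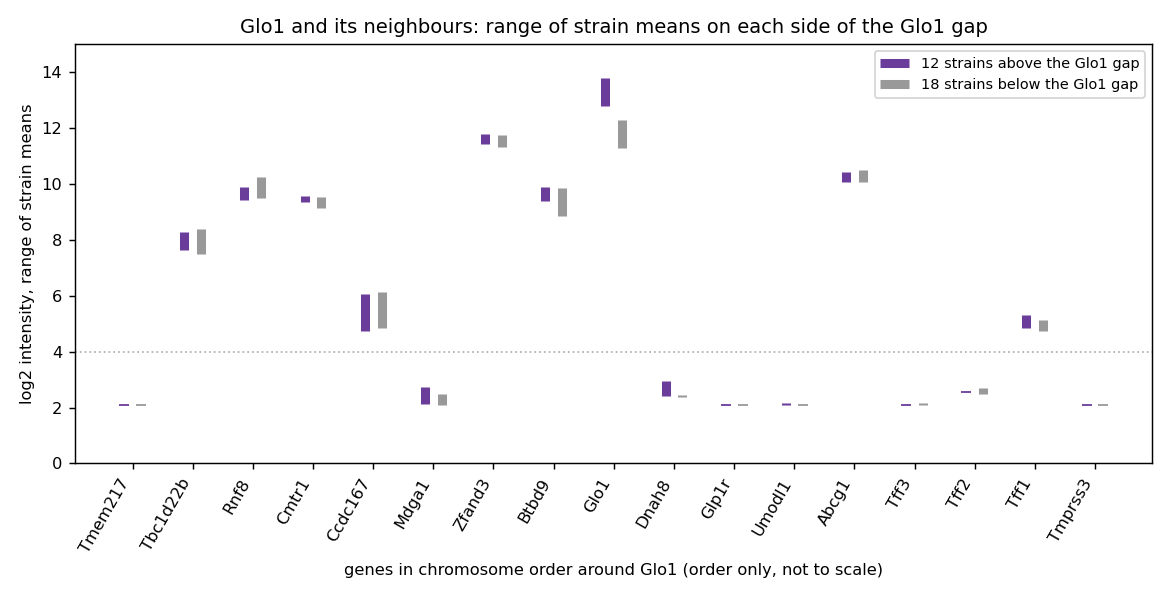
Range of strain means (y axis, log2 intensity) of Glo1 and its 16 nearest named genes with the probe set of highest mean for each, in chromosome order along the x axis and not to scale, for the 12 strains above (left bar) and the 18 strains below (right bar) the Glo1 gap; the dotted line marks the minimum of 4 for a test. The Glo1 bars, 12.77 to 13.79 above and 11.26 to 12.29 below, are apart, those of the other tested genes overlap, and heights of different genes cannot be compared.

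Hagh, the partner enzyme, varied less between strains than Glo1 and did not follow its split. Probe set 1424171_a_at read 11.22, 11.66 and 12.25 (lowest, median, highest) in high Glo1 strains, against 11.26, 11.55 and 12.05 in low Glo1 strains. Probe set 1424172_at read 11.10, 11.39 and 12.05 in high Glo1 strains, against 11.15, 11.38 and 11.74 in low Glo1 strains. Probe set 1437519_x_at read 10.71, 10.86 and 11.30 in high Glo1 strains, against 10.72, 10.86 and 11.09 in low Glo1 strains. The Hagh arrays of both sets overlapped almost wholly, and some overlap was found on every tested probe set outside Glo1. The strain F-test was passed by 1424171_a_at (limma adjusted p = 6.16e-06) and by 1424172_at (limma adjusted p = 0.0408) and missed by 1437519_x_at (limma adjusted p = 0.375). The strain ranges were 0.94, 0.53 and 0.35 log2 units, or 1.92-, 1.44- and 1.28-fold. CBA/J had the highest Hagh mean on 1424171_a_at, 12.20, and on 1424172_at, 11.68. A/J, among the highest strains for Glo1, was the lowest for Hagh on 1424171_a_at, at 11.25. On 1437519_x_at 25 of 60 arrays lay within 0.005 of 10.86, so that probe set resolved few differences. Its suffix, x_at, marks probes that can also match other transcripts.

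No Pearson correlation of Hagh with Glo1 passed 0.05 after adjustment over the 48 relations. Over 30 strains, Glo1 1451240_a_at and Hagh 1424171_a_at gave r = 0.189 (permutation p = 0.318, adjusted p = 0.587) and rho = 0.142 (permutation p = 0.451). Without the 2 farthest strains r was 0.352. Within the strain sets the sign of this pair was negative. Its r was -0.648 in the 12 high strains (permutation p = 0.0246, adjusted p = 0.197) and -0.265 in the 18 low strains (permutation p = 0.290, adjusted p = 0.580). With Glo1 1424108_at and 1424109_a_at, Hagh 1424171_a_at gave r = -0.370 and -0.390 in the 12 high strains. Without the 2 farthest strains these were 0.449 and 0.339. In the 18 low strains they were 0.299 and 0.447, and all 6 Hagh values with these 2 Glo1 probe sets were positive there. In the 12 high Glo1 strains, Glo1 1451240_a_at and Hagh 1424172_at gave rho = -0.853 (permutation p = 0.0009, adjusted p = 0.0432) and r = -0.722 (permutation p = 0.00519, adjusted p = 0.133). Without the 2 farthest strains that r was -0.791. The same Hagh probe set gave r = -0.0299 with Glo1 1424108_at in the same 12 strains, and r = -0.0063 with 1424109_a_at. Glo1 1436070_at was not examined within those 12 strains alone.

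With fluoxetine none of the 10 probe sets of Glo1, Btbd9 and Hagh passed the threshold, an adjusted p under 0.05 in limma with strain as a block. Over all tested probe sets 10 of 21631 passed, or 0.0462%, and the median difference was -0.0042. Differences are fluoxetine minus water within a strain, in log2 units.

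Glo1 levels with fluoxetine and with water covered the same range. Probe set 1424108_at read 10.12, 10.53 and 12.25 (lowest, median, highest) with fluoxetine, against 9.97, 10.51 and 12.24 with water. The difference was 0.0076 (SE 0.0217, limma adjusted p = 0.928), with a 95% interval of -0.0366 to 0.0518, and it was positive in 15 of 30 strains. On 1424109_a_at the difference was -0.0055 (SE 0.0299), with an interval of -0.0664 to 0.0554. On 1436070_at it was 0.05 (SE 0.0302), with an interval of -0.0130 to 0.110. On 1451240_a_at it was -0.02 (SE 0.0366), with an interval of -0.0926 to 0.0564. The signs differed between probe sets of Glo1, and every interval included 0. These intervals are narrow beside the Glo1 difference between strain sets.

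The Glo1 differences of a strain did not run alike on all probe sets. Over 30 strains, the differences on 1424108_at and 1424109_a_at gave r = 0.473 (permutation p = 0.0083, adjusted p = 0.0192, rho = 0.575). Those on 1424109_a_at and 1451240_a_at gave r = -0.496 (permutation p = 0.00496, adjusted p = 0.0124, rho = -0.548). Without the 2 farthest strains these values were 0.517 and -0.522. A strain whose Glo1 read higher with fluoxetine on 1 probe set thus tended to read lower on another. In DBA/2J, for instance, the differences on 1424108_at, 1424109_a_at, 1436070_at and 1451240_a_at were 0.12, 0.24, 0.22 and -0.40.

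Btbd9 read slightly higher with fluoxetine on its 3 probe sets, but no difference passed the adjusted threshold. Probe set 1434769_at read 8.30, 9.07 and 9.68 (lowest, median, highest) with fluoxetine, against 8.26, 9.03 and 9.35 with water. It averaged 9.04 ± 0.26 with fluoxetine and 8.96 ± 0.25 with water (SD, n = 30 each). The difference was 0.09 (SE 0.0290, 95% interval 0.0271 to 0.145), positive in 23 of 30 strains, with limma p = 0.00556 and adjusted p = 0.180. A sign-flip permutation test over the 30 strains, two-sided, gave p = 0.00472 before any adjustment. The difference was thus small beside the spread of strains, and the arrays of both treatments overlapped over most of their range. Probe set 1431230_a_at read 8.78, 9.64 and 9.92 with fluoxetine, against 8.92, 9.51 and 9.87 with water. Its difference was 0.08 (SE 0.0308, 95% interval 0.0220 to 0.147), positive in 22 of 30 strains, with limma p = 0.0097 and adjusted p = 0.210. Both correspond to about 6% (6.15% and 6.05%) more signal with fluoxetine. Before adjustment, 665 tested probe sets had a smaller p than 1434769_at and 993 a smaller one than 1431230_a_at. On 1435706_at the difference was 0.02 (SE 0.0235, 95% interval -0.0230 to 0.0727; limma adjusted p = 0.705), positive in 16 of 30 strains. The strain with the largest Btbd9 difference was C58/J on 1431230_a_at, at 0.47, MA/MyJ on 1434769_at, at 0.50, and DBA/2J on 1435706_at, at 0.24. Over 30 strains the differences on 1431230_a_at gave r = 0.268 with those on 1434769_at and -0.242 with those on 1435706_at. Those on 1434769_at and 1435706_at gave r = 0.333. The adjusted permutation p-values were 0.217, 0.243 and 0.119, so the probe sets did not clearly share the strains that read higher.

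Hagh differences were of similar size and did not pass. Probe set 1424171_a_at read 11.22, 11.59 and 12.25 with fluoxetine, against 11.27, 11.58 and 12.15 with water. Its difference was 0.06 (SE 0.0337, 95% interval -0.0075 to 0.130; limma adjusted p = 0.440), positive in 19 of 30 strains. On 1424172_at it was 0.06 (SE 0.0347; limma adjusted p = 0.488), positive in 16 of 30 strains and negative in 14. On 1437519_x_at it was 0.04 (SE 0.0243; limma adjusted p = 0.497), positive in 12 strains, negative in 14 and without a difference in 4. DBA/2J had the largest Hagh difference on all 3 probe sets. Its Hagh arrays read 12.09, 12.05 and 11.30 with fluoxetine, against 11.60, 11.30 and 10.89 with water, on 1424171_a_at, 1424172_at and 1437519_x_at. Without DBA/2J the Hagh differences were 0.05, 0.03 and 0.03, and no member probe set changed direction. Of the 3, the mean of 1424172_at moved most.

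The Hagh differences of a strain ran together over its probe sets. Pearson r between probe sets was 0.762 for 1424171_a_at with 1424172_at, 0.832 for 1424171_a_at with 1437519_x_at and 0.660 for 1424172_at with 1437519_x_at. The adjusted permutation p-values were 7.5e-05, 7.5e-05 and 0.00111, and the rho values 0.687, 0.721 and 0.428. Without the 2 farthest strains r was 0.703, 0.721 and 0.453. The 3 probe sets of Hagh were read on the same arrays, so a difference between pools or arrays of a strain enters all of them.

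**Figure D5:**
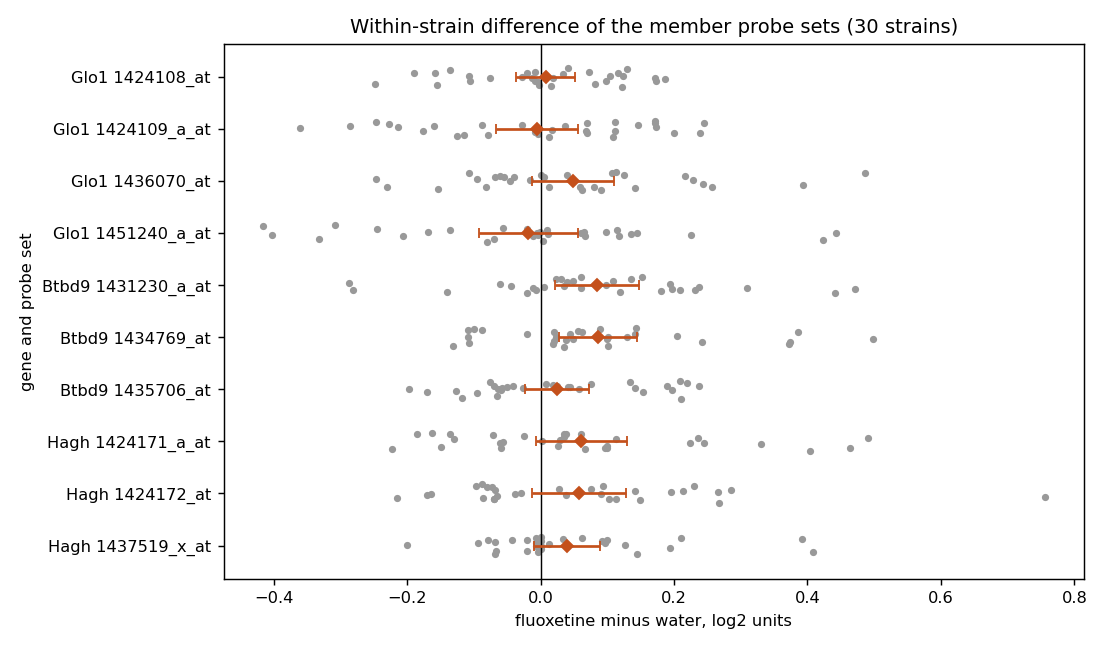
Fluoxetine minus water in log2 units (x axis) for the 10 probe sets (rows), with a grey point per strain (30 strains), a diamond at the mean and a bar for its 95% interval from limma. All means lie between -0.02 and 0.09; the intervals of Btbd9 1431230_a_at and 1434769_at lie above 0 before adjustment, and the point at 0.76 for Hagh 1424172_at is DBA/2J.

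The wider methylglyoxal and glutathione pathway was read from a list of 22 genes that includes Glo1 and Hagh. A probe set was found for 21 of them and 18 passed the filter, while Akr1b8, Ager and Lgals3 did not. Of the 18, 0 were called higher and 0 lower with fluoxetine by limma, and 2 had an unadjusted p under 0.05. The differences were positive for 8 genes and negative for 10, with a median of -0.0088 against -0.0042 over all tested probe sets. The smallest p belonged to Aldh9a1, an aldehyde dehydrogenase, at -0.09 (SE 0.0245, limma adjusted p = 0.108), negative in 22 of 30 strains. Aldh1a1, the cytosolic retinaldehyde dehydrogenase, had -0.10 (SE 0.0431, limma adjusted p = 0.305). Glod4, a gene with a glyoxalase domain, had -0.04 (SE 0.0195, limma adjusted p = 0.376). Hagh itself had the next smallest p. Genes of glutathione synthesis, Gclc and Gclm for its rate-limiting enzyme and Gss for the last step, named for their role after the values were seen, had differences of 0.03, 0.01 and -0.01. Between strains 15 of the 18 passed the F-test, a share near the 85.8% of all tested probe sets. The 15 include Glo1, whose strain split was read off its own values.

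The genes whose strain pattern was most like that of Glo1 were ranked by Pearson r over the 30 strain means with 1451240_a_at, with no test. They were Gng10, a G protein gamma subunit (r = 0.628), Psmc2 of the proteasome (0.617), Xpo7, a nuclear transport factor (0.607), Lsm11 of histone mRNA processing (0.605) and Miga1 of the mitochondrial outer membrane (0.587). They lie on chromosomes 4, 5, 14, 11 and 3. The most opposite were Synj2, an inositol phosphatase on chromosome 17 (-0.737), Cog1 of the Golgi (-0.696) and Lonp2, a peroxisomal protease (-0.673). None of them separated the Glo1 strain sets, and no tested probe set outside Glo1 did so array by array. Synj2 had strain means of 8.81 to 9.22 in high Glo1 strains, against 8.99 to 9.85 in low Glo1 strains. Among the 21627 other probe sets ranked by this r, the Btbd9 probe sets stood at places 3615, 8263 and 315 and those of Hagh at 3517, 13882 and 11914. Ranked by r with 1424108_at, they stood nearer the top, Btbd9 at 2014, 3663 and 92 and Hagh at 1740, 6959 and 7789, with r = 0.529 for Btbd9 1435706_at. That r also runs across both strain sets.

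For Btbd9 1431230_a_at the most alike were Aptx, a DNA repair gene (r = 0.804), Trim37, a ubiquitin ligase (0.783), and Plekhm3 (0.754). All 3 were lowest in RIIIS/J, like Btbd9. Plekhm3 had a mean of 4.88 in RIIIS/J, against medians of 8.69 with fluoxetine and 8.72 with water over all strains. Without RIIIS/J the values of r were 0.549, 0.585 and 0.424. For Hagh 1424171_a_at the most alike were Clta, a clathrin light chain (0.769), Plin2 of lipid droplets (0.741) and Map2k3, a kinase (0.727).

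The cortical label was checked against markers, each read on 1 probe set only. Of 5 markers of cortical neurons, 4 had a probe set, with medians of 11.77 to 15.68 with fluoxetine and 11.83 to 15.68 with water. Drd2 of the striatum sat at the lowest value of the arrays in the median, while Ppp1r1b, also of the striatum, had medians of 8.93 with fluoxetine and 8.66 with water. Its difference was 0.33 (SE 0.105, limma p = 0.00354, adjusted p = 0.165), positive in 22 of 30 strains. The genes listed for hippocampus differed in level: Prox1 had medians of 3.94 with fluoxetine and 3.92 with water, and Wfs1 11.19 and 11.09. Wfs1 had a difference of 0.23 (SE 0.0739, limma p = 0.00381, adjusted p = 0.167), positive in 21 of 30 strains. That of Prox1 was -0.02 (limma adjusted p = 0.903). The differences of Ppp1r1b and Wfs1 did not pass the threshold and were larger than those of Btbd9 and Hagh. The choroid plexus marker Ttr ranged from 4.25 to 11.21 with fluoxetine and from 5.07 to 15.09 with water. Its difference was -0.44 (SE 0.471, limma adjusted p = 0.750), positive in 13 of 30 strains. It did not pass the strain F-test (limma adjusted p = 0.403). The other listed markers of that tissue, Kl and Folr1, did not reach the minimum for a test. Their highest arrays read 4.47 and 2.78 with fluoxetine and 4.95 and 3.25 with water. Beyond Ttr, whether arrays differed in that tissue was not tested. Oligodendrocyte markers had negative differences between fluoxetine and water in 3 of 3 tested genes, with a median of -0.29 and 0 called by limma (3 with an unadjusted p under 0.05). Astrocyte markers had positive differences in 4 of 4, with a median of 0.07 and 0 called (2 with an unadjusted p under 0.05). The part of tissue makeup, these regional markers included, in the Btbd9 and Hagh differences was not tested. In pooled tissue, fewer cells of a type and less RNA per cell cannot be told apart. Median array intensity ran from 39.1 to 43.1. No scan date or batch was known, so none entered the fit.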

How the data were processed

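Male mice of 30 strains gave 60 cortex arrays, each from a pool of 3 mice. The values deposited by the authors are linear intensities for each probe set on each array, made by GCRMA per the submitters' processing notes. The version, probe masking and further scaling are not given in the sources used here. The linear scale was read from the values, and log2 was taken with no pseudocount. On each array 26.0% to 28.0% of probe sets shared the lowest value, 2.07, below which no level is resolved. The number of arrays limits the precision.

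The platform annotation gave 34945 of 45101 probe sets 1 symbol, 932 several and 9160 no symbol, besides 64 controls. Probe sets with 1 symbol and a log2 intensity of at least 4 in at least 6 arrays were tested: 21631, all 10 members among them. limma 3.58.1 (R 4.3.3) was fitted with treatment and strain, with Benjamini-Hochberg adjustment at 0.05 over all tested probe sets, two-sided. The strain label pairs both arrays of a strain. The pairing was checked with the intraclass correlation, whose median was 0.588. Correlations over strains used 100000 permutations (Python 3.11.15, scipy 1.17.1), two-sided. The fit was tested on simulated data. Named genes were the members, the 4 smallest p-values of the pathway list where none passed, the 8 nearest named genes on each side of Glo1, and the genes of highest and lowest likeness. The members, lists and tests were chosen with earlier results of these data known. Alternatives covered the block, the filter, the scaling, the pseudocount, the variance model and the probe set. Sequences came from RefSeq tables of build GRCm38.p6, and no other coordinates were used. The limma p-values for fluoxetine reflect the spread of the differences within strains. With 1 array per strain and treatment, spread between pools and a response particular to a strain cannot be told apart there.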

Additional observations from a re-analysis of the deposited data

Results flagged for a closer look

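The Hagh difference, fluoxetine minus water, had opposite signs in families of related strains in 3 of the 60 comparisons of a family pair on a member probe set. On 1424171_a_at all 3 strains of the group 129S1/SvImJ, LP/J and BTBRT T(+) tf/J were lower with fluoxetine, at -0.22 to -0.06, and all 4 C57/C58-related strains were higher, at 0.10 to 0.33. The family means, -0.115 and 0.223, differed by -0.337 log2 units. The 4 Swiss-derived strains were also higher on this probe set, at 0.03 to 0.11, so that the difference of 129S1/SvImJ, LP/J and BTBRT T(+) tf/J from them was -0.167. On 1437519_x_at these 3 strains ran from -0.20 to -0.08 and the C57/C58-related strains from 0.06 to 0.21, a difference of -0.260. On 1424172_at both families held strains of either sign. These differences between families were not tested. The share of such opposite signs over all tested probe sets was not counted, so whether 3 of 60 is unusual is not known. The Hagh differences on 1424171_a_at and 1437519_x_at ran together over strains (r = 0.832), so the 3 comparisons are not independent. Families were assigned from known genealogy.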

How the results depend on the processing

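The 10 member differences between fluoxetine and water stayed short of the threshold under every alternative run for them. Those were the fit with no replicate block, both filters, 1 probe set per gene (for the probe set of highest mean of each gene), the trended robust variance, added quantile scaling, a pseudocount of 16 and, chosen after seeing the data, leaving out DBA/2J. The smallest adjusted p among them was 0.142, for Btbd9 1434769_at, and its difference ranged from 0.08 to 0.09. Only the added quantile scaling, the pseudocount and leaving out DBA/2J could alter a difference, and under these each kept its direction. In a balanced paired design the other settings leave the difference as it is and change only its p. The strain label pairs the arrays, and of all tested probe sets 10 passed with strain as a block, against 0 with no replicate block, where 708 had an unadjusted p under 0.05. With no filter 0 of 34945 passed (3235 unadjusted), and without DBA/2J 0 passed (2414 unadjusted). The cause was not tested.

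Btbd9 1435706_at with Glo1 1451240_a_at gave r = 0.412, past an unadjusted 0.05, against 0.186 with 1431230_a_at. In the 18 strains below the gap of 1424108_at, r of Btbd9 1431230_a_at with Glo1 1451240_a_at turned to -0.173. For Hagh 1424171_a_at with Glo1 1451240_a_at, r turned to -0.648 in the 12 strains above and -0.265 in the 18 below. Both splits were added after seeing the data. The largest gap set 1 strain above it on 1451240_a_at, 12 strains in the water arrays of that probe set, 12 on 1424108_at, 12 on 1424109_a_at and 28 on 1436070_at. Of the 5 genes most like Glo1, 3 stayed with Spearman rho, 1 with water arrays only and 1 with 1424108_at. In all, 89 values kept their direction and their side of the threshold or moved by less than the spread, while 10 moved, 3 reversed and 1 was stronger. The 89 include member differences under settings that could not alter the difference itself.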

Other observations

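DBA/2J read higher with fluoxetine than with water on 9 of the 10 probe sets of Glo1, Btbd9 and Hagh. Its Btbd9 differences were 0.44, 0.39 and 0.24 on 1431230_a_at, 1434769_at and 1435706_at, and its Hagh differences were 0.49, 0.76 and 0.41 on 1424171_a_at, 1424172_at and 1437519_x_at. The exception was Glo1 1451240_a_at, which read 12.56 with fluoxetine and 12.97 with water. In A/J, the strain with the highest Glo1 1451240_a_at level, the differences of all 10 probe sets lay between -0.07 and 0.09. With 1 array per strain and treatment, neither has a replicate.

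With Glo1 1424108_at in place of 1451240_a_at, the genes of most similar strain pattern were Tcaf1 (r = 0.658), Xpo7 (0.655), Tmem245 (0.654), Kmt2c (0.641) and Galnt11 (0.636). The most opposite were Tmem126a (-0.668), Lypd1 (-0.664) and Cryab, a small heat shock protein (-0.651). Xpo7 alone was among the 5 for both probe sets. No test was made.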
